A study of Mus musculus with 2 samples.

Results

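The genes described here are 10 genes of the integrated stress response, namely Atf4, Atf5, Ddit3, Asns, Trib3, Phgdh, Psat1, Shmt2, Mthfd2, and Gdf15. They were taken by symbol from the 32285 genes of the deposited count matrices, and all 10 members were found. The matrices hold droplet-based 3′ scRNA-Seq data of retina from male C57BL/6J mice aged 7 months, with 1 library of WT mice (replicate 1) and 1 library of ND6 mice (replicate 1). The ND6 mice carry a proline-to-leucine change in ND6, a subunit of complex I that is encoded by mtDNA and not by the nuclear genome. It is linked in humans to Leber hereditary optic neuropathy, a loss of vision through degeneration of retinal ganglion cells (RGCs). Since mtDNA passes through the mother, the line is kept by breeding mutant females to WT males, as the study's methods describe. With 1 library per genotype the spread between mice is unknown, so no test was made, and every interval given below covers counting error only.

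The integrated stress response is a program by which cells slow protein synthesis under stress. Kinases sensing amino acid shortage, unfolded protein in the endoplasmic reticulum (ER), viral RNA, or heme deficiency phosphorylate the initiation factor eIF2, and mRNAs with upstream open reading frames, among them those of ATF4, ATF5, and CHOP (encoded by Ddit3), are then translated more. ATF4 is a transcription factor that binds composite elements together with C/EBP proteins and drives genes for amino acid supply, tRNA charging, and mitochondrial 1-carbon metabolism. Defects of the mitochondrial respiratory chain are known to switch on this program in muscle and other tissues, which makes its genes a natural readout in a complex I mutant. Since ATF4 is governed largely at translation, the level of Atf4 mRNA is not a measure of ATF4 protein.

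Because the response is carried by such elements, the letters TGATGNAA were searched on both strands of promoter windows that span 250 bases before to 50 bases after each annotated start (RefSeq, GRCm38.p6). All 10 members had at least 1 window, with 13 windows in total. The letters were found in 2 of these windows, those of Asns and Trib3, whereas they stand in 3.97% of all 32851 windows in the table. Both windows are shown here, since these genes are classical ATF4 targets and differed between the libraries in opposite directions, as described below. They are written 5′ to 3′ on the strand of the gene, which is the minus strand for both, with the match in capitals. The Asns window lies at chr6:7693160-7693459 and its match begins 23 bases before the start. The Trib3 window lies at chr2:152344011-152344310, and its match, which reads on the opposite strand to the gene, begins 14 bases after the start.
Asns: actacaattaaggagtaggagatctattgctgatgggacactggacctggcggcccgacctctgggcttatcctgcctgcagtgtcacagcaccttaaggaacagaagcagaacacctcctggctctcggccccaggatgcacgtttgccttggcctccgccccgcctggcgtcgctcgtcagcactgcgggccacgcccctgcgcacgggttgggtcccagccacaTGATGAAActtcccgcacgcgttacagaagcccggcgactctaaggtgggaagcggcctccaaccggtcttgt
Trib3: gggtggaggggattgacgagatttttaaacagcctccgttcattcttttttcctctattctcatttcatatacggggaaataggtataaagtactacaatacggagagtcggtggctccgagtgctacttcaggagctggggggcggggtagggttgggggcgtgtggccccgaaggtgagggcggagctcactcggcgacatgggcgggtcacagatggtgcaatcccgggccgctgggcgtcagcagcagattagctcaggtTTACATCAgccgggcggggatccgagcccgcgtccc
A match is a description of the letters only, and for the other 8 members it says only that they are not in these windows.

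After filtering, 12529 WT cells with 54524401 UMIs and 18395 ND6 cells with 62949610 UMIs were left, and the median cell held 1878 UMIs and 1416 UMIs, respectively. The limit on mtDNA-encoded UMIs removed 45.9% of the WT barcodes but 17.3% of the ND6 barcodes, and 59 cell barcodes were shared between the libraries. Cells fell into 24 clusters, from which 8 classes were named by their markers. These comprise rod-like cells (10131 WT and 13775 ND6), cone-like cells (644 and 1138), bipolar-like cells (242 and 636), RPE-like cells (330 and 962, of the retinal pigment epithelium), macrophage- or microglia-like cells (266 and 144), amacrine-like cells (78 and 305), Müller-like cells (36 and 93), and red blood cell-like cells (49 and 19). The remaining cluster (753 and 1323 cells) was led by Bc1, Glul, and mtDNA-encoded genes and is called Bc1- and Glul-led cells. Markers of Müller cells, RGCs, and horizontal, amacrine, endothelial, and astrocyte cells were raised in it side by side. Its rod markers stood far higher, at 66270 CPM in WT and 58316 CPM in ND6. The Müller markers made up 1026 and 2410 CPM and the RGC markers 323 and 631 CPM. No cluster was named RGC-like, horizontal-like, astrocyte-like, endothelial-like, or pericyte-like, so the members are not described in these cells. Within several classes the libraries differed in makeup. Most amacrine-like cells came from cluster 13 in WT (62 cells) and from cluster 14 in ND6 (170 cells), and most cone-like cells from cluster 9 in WT (374 cells) and from cluster 8 in ND6 (665 cells). Of the bipolar-like cells, cluster 17 held 70 in WT and 50 in ND6 but cluster 11 held 59 and 279. RPE-like cluster 20 held 93 WT cells but 4 ND6 cells, and the median Müller-like cell held 10130 UMIs in WT against 1645 UMIs in ND6.

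Levels (CPM) are UMIs of a gene in every 1000000 UMIs of the cells summed. As a 3′ library counts 1 end of each mRNA molecule, they were not divided by gene length. Over all cells the members spanned a wide range. Atf4 made up 72.1% of the members' UMIs in WT and 64.9% in ND6, and Atf4 and Ddit3 together made up 87.4% and 82.6%. Gdf15, which encodes a secreted stress cytokine, was at the other end, with 84 UMIs in all WT cells and 102 UMIs in all ND6 cells.

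**Figure D1:**
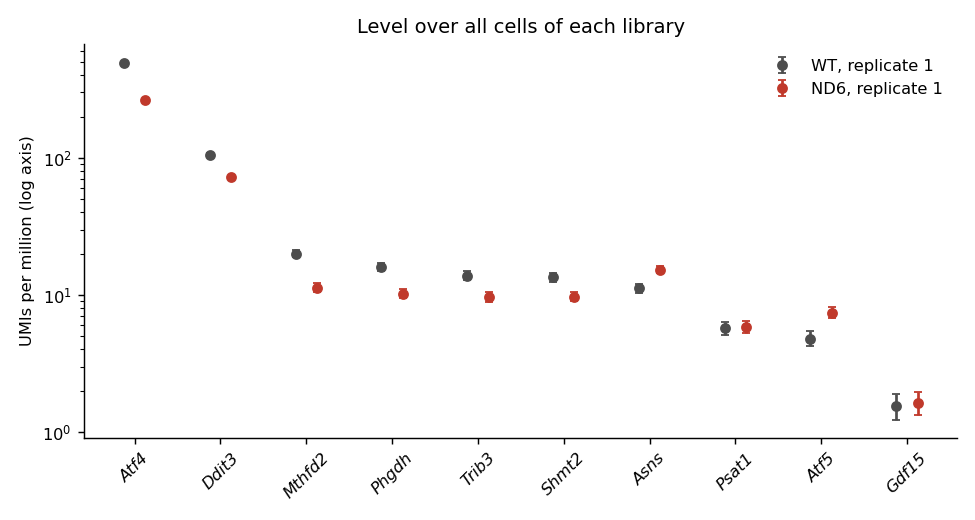
Level of each of the 10 members over all cells of the WT and of the ND6 library, in CPM on a log axis, with exact Poisson 95% intervals. Atf4 and Ddit3 lie highest and Gdf15 lowest, and 6 members sit lower in ND6 than in WT.

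Between the libraries, 6 of 10 members were lower in ND6 and 4 were higher, with a median log2 ratio (ND6 over WT) of −0.49, beside a median of 0.07 over all 15888 genes with at least 20 UMIs. Past a log2 ratio of 0.5, the size the study used to call genes, 5 members were lower (Atf4, Mthfd2, Phgdh, Ddit3, and Trib3), where 8.72% of all genes were, and 1 member was higher (Atf5), where 21.4% of all genes were. The members therefore lay mostly on the lower side, while more of the other genes lay on the higher side. This tally depended on how cells were weighted. When every cell counted alike, the median was −0.20, beside 0.22 over all genes. Then 1 member was lower past 0.5 and 2 were higher. The share of all genes past 0.5 was not counted under this weighting.

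Atf4 encodes the central transcription factor of the response and lies on chromosome 15 (80255184 to 80257541, plus strand, in mm10). It stood at 495 CPM (489 to 501) in WT and 265 CPM (261 to 269) in ND6, a log2 ratio of −0.90 (−0.93 to −0.87). The intervals of the libraries do not overlap. At least 1 Atf4 UMI was seen in 59.1% of WT cells and 38.7% of ND6 cells, and after each cell was thinned to 400 UMIs in 16.6% (16.0 to 17.3) and 9.37% (8.95 to 9.80). At this equal depth the shares still differed beyond their intervals. Barcodes of 10 to 100 UMIs, taken as RNA free of cells, differed in the same direction, with 442 CPM in WT and 290.3 CPM in ND6 and a log2 ratio of −0.61 (−1.01 to −0.20). Free RNA from the suspension enters every droplet, and its part in the difference was not tested.

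The difference in Atf4 was seen in every class. In rod-like cells Atf4 stood at 523 CPM in WT and 281 CPM in ND6 (−0.90, −0.93 to −0.86), and in cone-like cells at 468 and 269 CPM (−0.80, −0.86 to −0.74). The cone-like clusters 8 and 9 alone gave −0.85 (−0.92 to −0.78) and −0.76 (−0.88 to −0.64). In bipolar-like cells the levels were 339 and 216 CPM (−0.65, −0.81 to −0.50) and in amacrine-like cells 231.5 and 188 CPM (−0.30, −0.57 to −0.03). These pooled values cover unlike clusters. Among bipolar-like clusters the log2 ratio was −1.03 (−1.22 to −0.83) in cluster 11 but −0.14 (−0.63 to 0.33) in cluster 17, and the small cluster 23, with 8 and 25 UMIs, gave 0.75 (−0.39 to 2.17). Amacrine-like cluster 13 gave −0.14 (−0.45 to 0.18) and cluster 14 gave −0.69 (−1.21 to −0.14). RPE-like cells held 296 and 156 CPM when pooled (−0.92, −1.14 to −0.71), but in cluster 7, which holds 958 of the 962 ND6 cells, the levels were 494 and 159 CPM (−1.64, −1.86 to −1.42). Cluster 20, with 93 WT cells, held 103 CPM in WT. In cluster 7 the rod markers made up 54392 CPM in WT and 42018 CPM in ND6, and the RPE markers 30278 and 57233 CPM. In the WT cells of cluster 20 they made up 5444 and 99542 CPM. The part of these marker levels in the RPE-like difference was not tested. Macrophage- or microglia-like cells stood at 479 and 262 CPM (−0.86, −1.22 to −0.53), and Bc1- and Glul-led cells at 576 and 264 CPM (−1.13, −1.23 to −1.02). In Müller-like cells, the glia that span the retina, Atf4 stood at 416 CPM in WT and 129 CPM in ND6 (−1.67, −2.17 to −1.23), although this rests on 45 ND6 UMIs. In the 31 WT and 21 ND6 Müller-like cells of at least 5000 UMIs the log2 ratio was −1.89 (−2.54 to −1.34), and without the 5% of cells with the most UMIs in each library it was −0.67. The red blood cell-like cells gave 24 and 5 UMIs only (−1.67, −3.52 to −0.36). For the 9 classes taken whole, all intervals lie below 0. Rod markers, however, were present in every class. They made up 31521 CPM in WT and 34047 CPM in ND6 in bipolar-like cells, beside 78237 and 83850.5 CPM in rod-like cells. In Müller-like cells they made up 43369 and 41972 CPM, and in macrophage- or microglia-like cells 37274 and 38278 CPM. Red blood cell-like cells held 34404 and 14047 CPM of them. The part of rod RNA in the class differences was not tested. Past 0.5, Atf4 was lower in all classes except the amacrine-like cells, but in bipolar-like cells it was no longer past 0.5 with every cell weighted alike (−0.48), without the 5% of cells with the most UMIs (−0.36), and at Leiden resolution 2 (−0.44).

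Over the classes Atf4 ranged from 187 to 576 CPM in WT and from 54.4 to 281 CPM in ND6, with the red blood cell-like cells lowest in both. In WT it was highest in Bc1- and Glul-led cells (576 CPM), followed by rod-like, macrophage- or microglia-like, and cone-like cells (523, 479, and 468 CPM), of which neighbours in this order overlap in their intervals. In ND6 it was highest in rod-like cells (281 CPM), and the next 3 classes, cone-like, Bc1- and Glul-led, and macrophage- or microglia-like cells (269, 264, and 262 CPM), overlap with their neighbours. Within the 7 rod-like clusters the log2 ratio ranged from −0.92 in cluster 2 to −0.73 in cluster 3, with every interval below 0. Among rod-like cells, those with 15 to 20% of mtDNA-encoded UMIs gave −0.87 (−1.02 to −0.72) and those with at most 5% gave −0.83 (−0.90 to −0.77). By depth, the log2 ratio was −0.52 (−0.71 to −0.32) in rod-like cells of more than 400 and up to 1000 UMIs and −0.92 (−0.97 to −0.87) in those of more than 5000 UMIs.

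**Figure D2:**
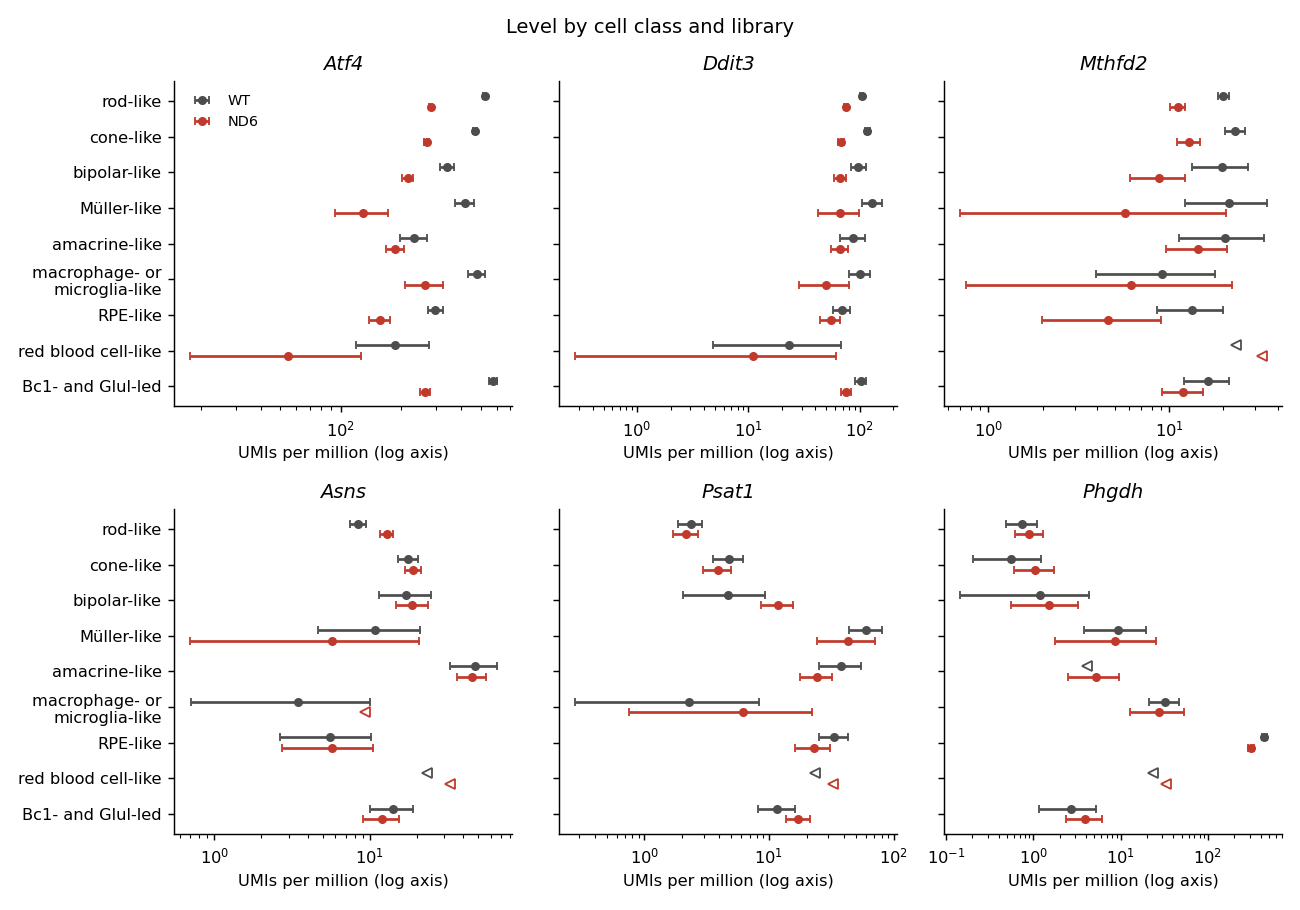
Level of 6 members in each cell class, in CPM on a log axis, for WT (grey) and ND6 (red), with exact Poisson 95% intervals. Open triangles mark classes with 0 UMIs, drawn at the level that 3 UMIs would have. Atf4 and Ddit3 are high in nearly all classes and lower in ND6, while Phgdh reaches 444 and 313 CPM in RPE-like cells and about 1 CPM in rod-like cells.

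Ddit3 encodes CHOP, a partner of C/EBP proteins that ATF4 induces and that promotes cell death under lasting stress. Its gene lies on chromosome 10 (127290774 to 127296288, plus strand). Over all cells it stood at 105 CPM (102 to 108) in WT and 71.9 CPM (69.8 to 74.0) in ND6, a log2 ratio of −0.55 (−0.60 to −0.49). In cells thinned to 400 UMIs this was −0.29. It was lower in ND6 in all 8 classes that could be compared, with intervals below 0 in 6 of them. Cone-like cells held 117 and 68.5 CPM (−0.78, −0.90 to −0.66), bipolar-like cells 97.1 and 66.2 CPM (−0.55, −0.84 to −0.26), and rod-like cells 104 and 75.3 CPM (−0.47, −0.54 to −0.40). In RPE-like cells (68.8 and 54.8 CPM, −0.33, −0.73 to 0.07) and amacrine-like cells (86.6 and 66.4 CPM, −0.39, −0.83 to 0.07) the interval included 0. In RPE-like cluster 7 alone, however, Ddit3 stood at 93.1 and 54.6 CPM (−0.77, −1.21 to −0.33), whereas WT cluster 20 held 45 CPM. The rod and RPE markers of these cells differed as given above for Atf4, and their part was not tested. A second, shorter gene model carries the same symbol within the first and was listed at 0 UMIs in both libraries. The gene for methionyl-tRNA synthetase, Mars, overlaps the end of Ddit3 by 68 bases on the opposite strand. Reads that match both Ddit3 models can be left uncounted, so its level may be understated in both libraries alike.

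Atf5 encodes a transcription factor related to ATF4 that is tied to the mitochondrial unfolded protein response, and it was the member with the highest ratio. It lies on chromosome 7 (44812256 to 44816658, minus strand), where Nup62 overlaps it by 571 bases on the other strand. Over all cells Atf5 stood at 4.81 CPM (4.24 to 5.42, 262 UMIs) in WT and 7.42 CPM (6.76 to 8.12, 467 UMIs) in ND6, a log2 ratio of 0.63 (0.41 to 0.85). It was higher in ND6 in 5 of 6 classes that could be compared. Bc1- and Glul-led cells held 11 and 19.2 CPM (0.79, 0.22 to 1.42), cone-like cells 4.19 and 6.31 CPM (0.58, 0.06 to 1.13), and rod-like cells 3.36 and 4.53 CPM (0.43, 0.08 to 0.79). Amacrine-like cells gave 4 and 30 UMIs (1.36, 0.01 to 3.48). In RPE-like cells the level was 17.2 and 16.0 CPM, with a log2 ratio of −0.10 (−0.90 to 0.68). In rod-like cells the higher level was seen in cells of more than 2000 and up to 5000 UMIs (33 and 49 UMIs, 0.76, 0.10 to 1.45) and of more than 5000 UMIs (47 and 54 UMIs, 0.46, −0.12 to 1.06). Below this depth the log2 ratio was −0.10 (−0.85 to 0.67) in cells of more than 1000 and up to 2000 UMIs. It was −0.43 (−1.64 to 0.96) in the shallowest range. The intervals of all these depth ranges overlap, so a dependence on depth was not shown. By cluster, rod-like cluster 3 gave −0.38 (−1.68 to 0.85).

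Trib3 encodes a pseudokinase that is induced by ATF4 and CHOP and holds the response back. It lies on chromosome 2 (152337422 to 152344032, minus strand) and stood at 13.8 CPM (12.8 to 14.8) in WT and 9.71 CPM (8.95 to 10.5) in ND6, a log2 ratio of −0.51 (−0.67 to −0.35). In cells thinned to 400 UMIs the log2 ratio was −0.03, beside a median of 0.15 over all genes. That value rests on 41 WT and 59 ND6 cells with a Trib3 UMI, 0.33% (0.23 to 0.44) and 0.32% (0.24 to 0.41). So few cells do not settle whether the difference holds at equal depth. With every cell weighted alike the log2 ratio was −0.29, and with no limit on mtDNA it was −0.35. In rod-like cells Trib3 stood at 14.8 and 10.3 CPM (−0.52, −0.72 to −0.32) and in cone-like cells at 13.3 and 10.7 CPM (−0.31, −0.65 to 0.02). It was lower in all 5 classes that could be compared, but the interval lay below 0 in 2 of them, the rod-like and the Bc1- and Glul-led cells. Within the rod-like clusters the direction was not shared. Cluster 2 (16.5 and 9.82 CPM, −0.75, −1.18 to −0.33) and cluster 6 (20.6 and 15.4 CPM, −0.42, −0.70 to −0.14), which hold the rod-like cells of highest depth, were lower in ND6, whereas cluster 1 gave 3 WT and 24 ND6 UMIs (2.25, 0.72 to 4.82).

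The 5 metabolic members fall into asparagine synthesis (Asns), serine synthesis (Phgdh and Psat1), and the mitochondrial 1-carbon branch (Shmt2 and Mthfd2), and they did not move together. Asns, on chromosome 6 (7675169 to 7693254, minus strand), makes asparagine from aspartate and glutamine. Over all cells it stood at 11.2 CPM (10.3 to 12.1) in WT and 15.3 CPM (14.4 to 16.3) in ND6, a log2 ratio of 0.45 (0.31 to 0.60), and of 0.22 in cells thinned to 400 UMIs. The thinned value stands beside a median of 0.15 over all genes. It rests on 57 WT and 101 ND6 cells, 0.45% (0.34 to 0.59) and 0.55% (0.45 to 0.67), with intervals that overlap. The difference was seen in rod-like cells, with 8.42 CPM in WT and 12.8 CPM in ND6 (0.60, 0.39 to 0.82), but in cone-like cells the levels were 17.7 and 19.0 CPM (0.11, −0.16 to 0.38). In bipolar-like and amacrine-like cells the log2 ratios were 0.12 (−0.51 to 0.80) and −0.08 (−0.65 to 0.54). Asns was highest in amacrine-like cells in both libraries, at 47.4 CPM (33.0 to 65.9) in WT and 45.3 CPM (36.3 to 55.8) in ND6, and the next class, cone-like cells, lay outside these intervals in each. The amacrine-like cells also held RGC markers, at 1920 CPM in WT and 822 CPM in ND6, beside 2583 and 2088 CPM of amacrine markers. The part of RGC RNA in this Asns level was not tested.

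Mthfd2, on chromosome 6 (83305691 to 83325908, minus strand), is the dehydrogenase and cyclohydrolase of the mitochondrial 1-carbon pathway and among the genes most often reported as induced by respiratory chain defects. Here it stood at 19.99 CPM (18.8 to 21.2) in WT and 11.3 CPM (10.5 to 12.2) in ND6, a log2 ratio of −0.82 (−0.96 to −0.68), which was −0.25 in cells thinned to 400 UMIs and −0.43 with every cell weighted alike. After thinning, Mthfd2 was seen in 57 WT and 74 ND6 cells, 0.45% (0.34 to 0.59) and 0.40% (0.32 to 0.50), with intervals that overlap. It was lower in ND6 in all 6 classes that could be compared, with intervals below 0 in rod-like cells (19.997 and 11.2 CPM, −0.84, −1.03 to −0.66), cone-like cells (23.2 and 12.8 CPM, −0.86, −1.13 to −0.58), bipolar-like cells (19.5 and 8.77 CPM, −1.16, −1.88 to −0.42), and RPE-like cells (24 and 8 UMIs, −1.49, −2.91 to −0.34). Shmt2, on chromosome 10 (127517123 to 127522444, minus strand), encodes the mitochondrial serine hydroxymethyltransferase that feeds this pathway. It stood at 13.4 CPM (12.5 to 14.4) in WT and 9.72 CPM (8.97 to 10.5) in ND6, a log2 ratio of −0.47 (−0.62 to −0.31). It was lower in rod-like cells (12.4 and 8.74 CPM, −0.50, −0.72 to −0.29) and cone-like cells (19.0 and 11.4 CPM, −0.73, −1.03 to −0.43). In bipolar-like, amacrine-like, and RPE-like cells its log2 ratios were 0.17, 0.70, and 0.29, each with an interval that included 0, as did that of RPE-like cluster 7 alone (10 and 12 UMIs, −0.70, −2.02 to 0.68).

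**Figure D3:**
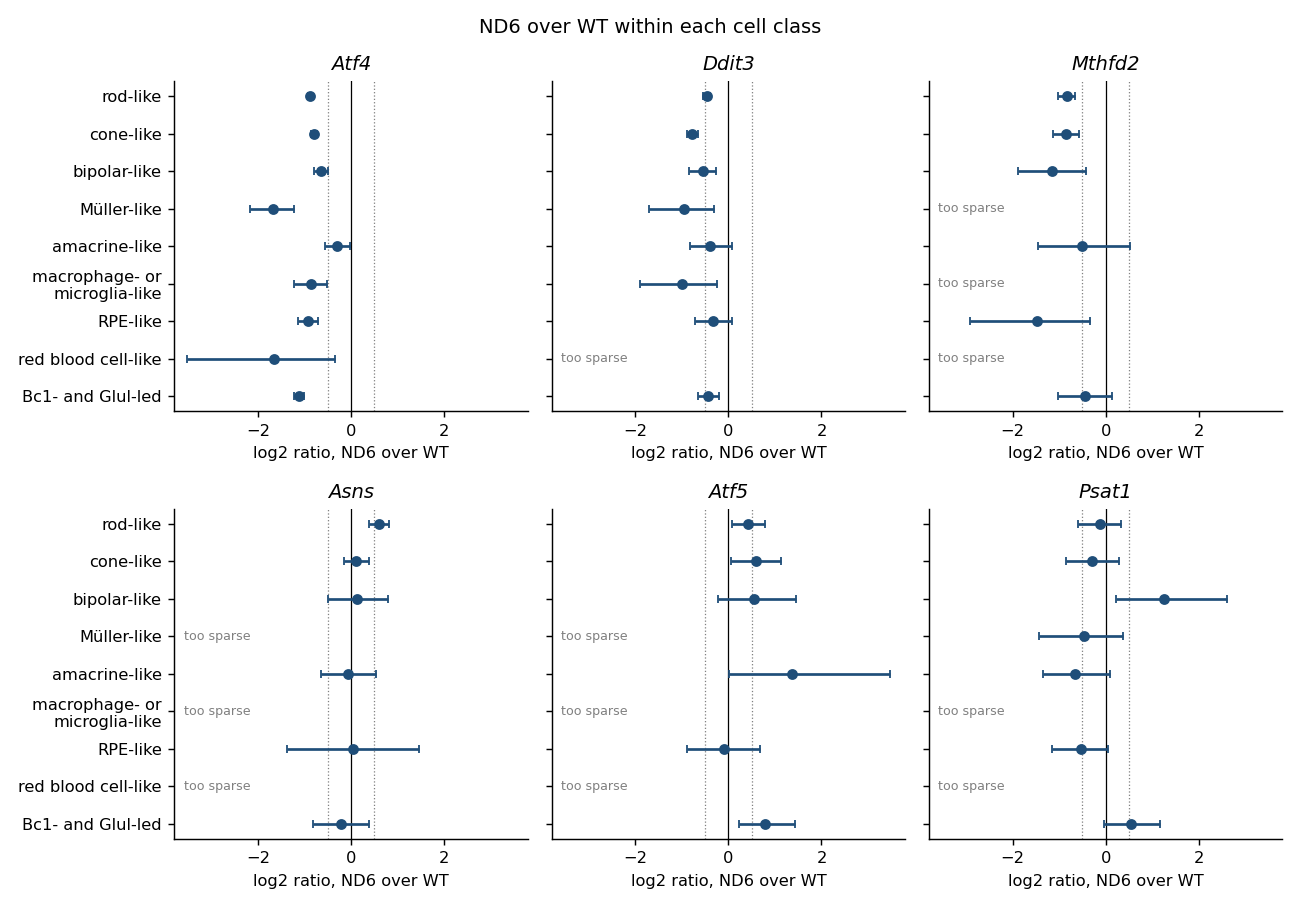
Log2 ratio of ND6 over WT within each cell class for 6 members, with exact conditional 95% intervals. Dotted lines mark 0.5 in each direction, and classes with fewer than 20 UMIs over both libraries are marked as too sparse. Atf4 lies below 0 in all 9 classes, and Atf5 lies above 0 in 5 of 6.

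The lower Mthfd2 and Trib3 of rod-like cells depended on the depth of the cells, a property of the libraries that differed between them. In rod-like cells of more than 5000 UMIs, Mthfd2 stood at 25.4 CPM in WT and 11.7 CPM in ND6 (−1.11, −1.37 to −0.86). In those of more than 1000 and up to 2000 UMIs it stood at 10.5 and 8.54 CPM (−0.30, −0.79 to 0.19). Trib3 gave −0.63 (−0.89 to −0.38) and 0.58 (−0.07 to 1.28) in the same 2 ranges. Shmt2 gave −0.56 (−0.85 to −0.28) and −0.05 (−0.59 to 0.51), but these intervals overlap. WT cells of high depth thus held more Mthfd2 and Trib3 mRNA in CPM than WT cells of lower depth, from 4.42 to 19.9 CPM for Trib3. This gradient was shallower in ND6, from 6.65 to 12.8 CPM for Trib3. In cone-like cells Mthfd2 gave −0.10 once the 5% of cells with the most UMIs were left out, and by cluster −1.07 (−1.38 to −0.76) in cluster 8 and −0.31 (−0.94 to 0.30) in cluster 9. Ddit3 and Asns kept their direction in all 4 ranges of depth. Ddit3 lay between −0.58 and −0.31 and Asns between 0.43 and 0.68.

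**Figure D4:**
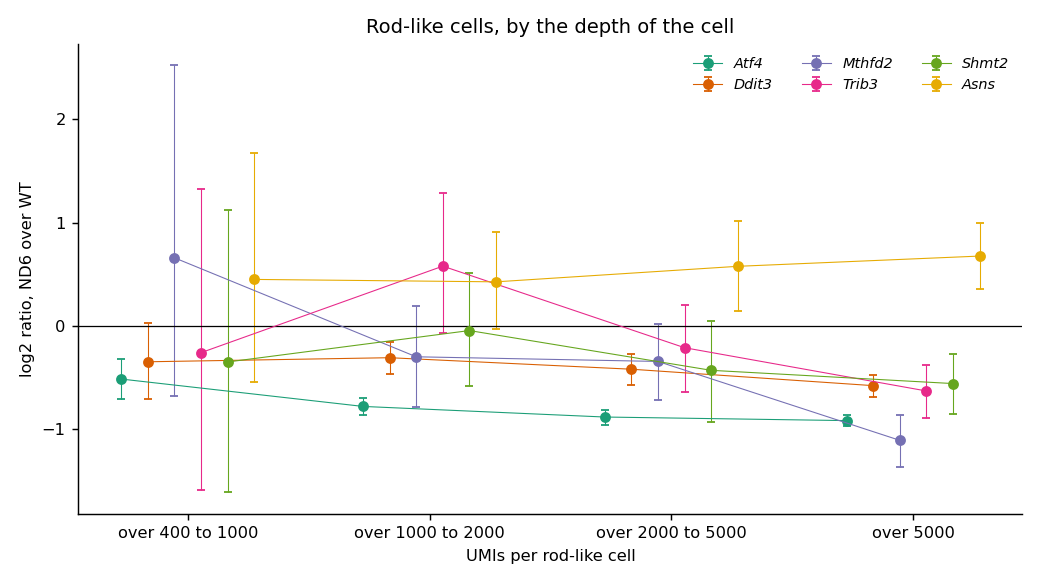
Log2 ratio of ND6 over WT in rod-like cells divided by the number of UMIs per cell, for 6 members, with exact conditional 95% intervals. Atf4 and Ddit3 lie below 0 and Asns above 0 at every depth, while Mthfd2, Trib3, and Shmt2 have intervals below 0 only in cells of more than 5000 UMIs.

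Phgdh, on chromosome 3 (98313170 to 98339990, minus strand), encodes the first enzyme of serine synthesis, and its mRNA was concentrated in RPE-like cells. There it stood at 444 CPM (414 to 476) in WT and 313 CPM (287 to 340.1) in ND6, against 0.75 and 0.90 CPM in rod-like cells. RPE-like cells gave 800 of all 877 WT UMIs and 548 of all 642 ND6 UMIs. Macrophage- or microglia-like cells came next with 32.1 CPM (21.3 to 46.3) in WT and 27.8 CPM (12.7 to 52.7) in ND6. Serine made in the RPE and in Müller cells is known to be passed on to photoreceptors. Per 1000 UMIs of the RPE markers, RPE-like cells held 6.80 Phgdh UMIs (6.34 to 7.29) and rod-like cells 7.68 (5.02 to 11.3) in WT, and the intervals overlap. In ND6 these were 5.37 (4.93 to 5.84) and 11.99 (8.15 to 17.0), and they do not. The part of free RNA in the Phgdh UMIs of rod-like cells (26 in WT) was not tested. Macrophage- or microglia-like cells lay far above the ratio of RPE-like cells, at 241 (160.4 to 348.9) in WT and 47.9 (21.9 to 90.9) in ND6. They were not alone in this. Müller-like cells held 184 (74.1 to 379.5) in WT on 7 Phgdh UMIs, but 16.5 (3.40 to 48.2) in ND6 on 3. Bc1- and Glul-led cells held 29.4 (12.7 to 58.0) in WT and 43.9 (26.4 to 68.5) in ND6. In ND6, amacrine-like (18.6, 8.90 to 34.1) and cone-like cells (10.6, 6.07 to 17.3) also lay above the interval of RPE-like cells.

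Over all cells Phgdh stood at 16.1 CPM (15.04 to 17.2) in WT and 10.2 CPM (9.42 to 11.02) in ND6, a log2 ratio of −0.66 (−0.81 to −0.51), and in RPE-like cells the log2 ratio was −0.50 (−0.66 to −0.35). With every cell weighted alike, the log2 ratio over all cells was 0.84, and with cells thinned to 400 UMIs it was 0.72, beside 962 RPE-like cells in ND6 and 330 in WT. The lower level did not hold within the RPE-like clusters either. In cluster 7 (237 WT and 958 ND6 cells) Phgdh stood at 208 CPM in WT and 304 CPM in ND6 (0.55, 0.31 to 0.80). In cluster 20 it stood at 675 CPM in the 93 WT cells and 786 CPM in the 4 ND6 cells (0.25, −0.42 to 0.79). Cluster 20 thus carried 615 of the 800 WT UMIs of RPE-like cells. The clusters also differed in their markers. The RPE markers made up 30278 CPM in the WT cells and 57233 CPM in the ND6 cells of cluster 7, and 99542 CPM in the WT cells of cluster 20. Per 1000 UMIs of these markers, cluster 7 held 6.86 (5.90 to 7.92) Phgdh UMIs in WT and 5.31 (4.87 to 5.79) in ND6, the reverse order of the CPM. At least 1 Phgdh UMI was seen in 34.6% (28.6 to 41.0) of WT and 32.9% (29.9 to 36.0) of ND6 cells of cluster 7, at median depths of 1680 and 1110 UMIs. The direction of the Phgdh difference in RPE-like cells therefore rests on how these cells are pooled and scaled. The part of the marker levels in it was not tested.

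Psat1, on chromosome 19 (15904678 to 15947337, minus strand), encodes the aminotransferase that follows Phgdh, but its pattern over the classes was different. It was highest in Müller-like cells, at 60.4 CPM (44.0 to 80.8) in WT and 43.0 CPM (24.1 to 71.0) in ND6. The amacrine-like cells (37.9 and 24.2 CPM) and RPE-like cells (33.3 and 22.8 CPM) came next in both libraries, and these neighbours overlap in their intervals. Rod-like cells, in contrast, held 2.36 and 2.15 CPM. Over all cells the level was 5.70 CPM (5.09 to 6.37) in WT and 5.83 CPM (5.25 to 6.46) in ND6, a log2 ratio of 0.03 (−0.19 to 0.25). Among 7 classes that could be compared the interval left out 0 only in bipolar-like cells, with 8 UMIs in WT and 47 UMIs in ND6 (1.24, 0.22 to 2.61). The 8 Müller markers moved with it there, from 445 CPM in WT to 1421 CPM in ND6 with 0 of them at 0 UMIs, while the 11 bipolar markers made up 9081 and 6513 CPM. Their part in the Psat1 difference was not tested.

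Gdf15, on chromosome 8 (70629393 to 70632456, minus strand), is a circulating marker of mitochondrial disease. It stood at 1.54 CPM (1.23 to 1.91) in WT and 1.62 CPM (1.32 to 1.97) in ND6, a log2 ratio of 0.07 (−0.36 to 0.51). At least 1 UMI was seen in 0.591% of WT cells and 0.527% of ND6 cells. In cone-like cells it stood at 3.63 CPM (2.58 to 4.96) in WT and 3.15 CPM (2.32 to 4.18) in ND6 (−0.21, −0.84 to 0.44), and in rod-like cells at 0.98 and 1.25 CPM (0.35, −0.33 to 1.05). The remaining 7 classes were too sparse to compare. A difference between the libraries was not detectable at this depth.

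Other members were too sparse as well in the smaller classes, with fewer than 20 UMIs over both libraries. In red blood cell-like cells this held for every member except Atf4. In macrophage- or microglia-like cells 3 members could be compared (Atf4, Ddit3, and Phgdh), and in Müller-like cells 3 (Atf4, Ddit3, and Psat1). Phgdh was also too sparse in bipolar-like and amacrine-like cells and Trib3 in amacrine-like cells.

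By class, the members past 0.5 were counted as for all cells. In rod-like cells 4 of 10 members were lower (Atf4, Mthfd2, Trib3, and Shmt2) and 1 was higher (Asns), where 8.0% and 19.5% of all genes were. In cone-like cells 4 were lower (Atf4, Ddit3, Mthfd2, and Shmt2) and 2 higher (Atf5 and Phgdh, the latter on 6 and 16 UMIs), against 8.27% and 12.1%. In bipolar-like cells 4 of 8 were lower (Atf4, Ddit3, Trib3, and Mthfd2) and 2 higher (Atf5 and Psat1), against 6.98% and 16.5%. In amacrine-like cells 2 of 7 were lower (Psat1 and Mthfd2) and 2 higher (Atf5 and Shmt2), against 14.8% and 21.4%. Markers of other cells differed there too, with 1920 and 822 CPM for the 9 RGC markers and 728 and 1610 CPM for the 8 Müller markers, and their part was not tested. In RPE-like cells 4 of 9 were lower (Atf4, Phgdh, Psat1, and Mthfd2) and 0 higher, against 12.7% and 14.0%, although Psat1 gave −0.04 (−0.82 to 0.82) and Phgdh 0.55 in cluster 7 alone. In Bc1- and Glul-led cells 2 of 9 were lower (Atf4 and Trib3) and 3 higher (Atf5, Phgdh, and Psat1), against 7.88% and 20.5%. Median log2 ratios of the members ranged from −0.41 in Bc1- and Glul-led cells to −0.22 in bipolar-like cells.

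Across classes, 3 of 10 members were at least 2-fold higher in RPE-like than in rod-like cells in both libraries (Phgdh, Psat1, and Atf5), where 12.9% of genes were. The same 3 members were so in Müller-like cells (18.4% of genes), Psat1 and Asns in amacrine-like cells (21.6%), and Gdf15 in cone-like cells (5.57%). In ND6 Müller-like cells, however, Atf5 and Phgdh rested on 3 UMIs each. The log2 ratio of Atf5 over rod-like cells was 1.14 there, with an interval that included 0. That of Phgdh was 3.46 (0.90 to 4.94). Higher levels than in rod-like cells were not particular to the classes tallied. In bipolar-like cells the log2 ratio of Atf5 over rod-like cells was 1.62 in WT and 1.74 in ND6. In Bc1- and Glul-led cells Atf5, Psat1, and Phgdh gave 1.73, 2.32, and 1.90 in WT and 2.09, 2.99, and 2.14 in ND6. The share of all genes was not counted for these classes. For Psat1 the log2 ratio over rod-like cells was 4.69 in WT and 4.36 in ND6 in Müller-like cells, and 3.82 and 3.42 in RPE-like cells. Asns was higher in amacrine-like than in rod-like cells by 2.51 on the log2 scale in WT and 1.83 in ND6. These amacrine-like cells also held the RGC markers given above. Among the 10216 other genes with at least 500 UMIs, those whose log2(CPM + 1) most resembled Psat1 over the 8 named classes of both libraries were Six3os1, Rcn2, and S100a16 (Pearson's r 0.97, 0.96, and 0.94), and for Asns they were Zc3h12b, Gm14827, and Porcn (0.97, 0.96, and 0.95). Mthfd2 was most like Rnf25, Suv39h1, and Hcfc2 (0.98, 0.97, and 0.97), Shmt2 like Ankrd49, Fam227a, and Fam53c (0.99, 0.98, and 0.98), and Ddit3 like Hnrnpa0, Ptges3, and Hnrnpa2b1 (0.97, 0.96, and 0.96). Trib3 was most like Gm26954, Gm16104, and Thg1l (0.97, 0.96, and 0.96), Atf5 like Limch1, Cald1, and Triqk (0.96, 0.96, and 0.94), and Atf4 like Dynll1, Hist1h2ae, and Zfp384 (0.92 for each). These are descriptions over 16 points that share 2 libraries and their depths, so that classes at 0 UMIs in the red blood cell-like cells weigh on them. Among the members, Ddit3 and Mthfd2 were most alike (0.93).

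The wider pathway was followed in 9 lists that hold 72 genes, of which 69 had at least 20 UMIs. Among these, 8 were lower and 5 were higher in ND6 past a log2 ratio of 0.5, where 8.72% and 21.4% of all genes were, and the median was −0.11. The lower share lay near that of all genes and the higher share below it. The 4 kinases that phosphorylate eIF2 had a median of −0.07, and 0 lay past 0.5. PERK (Eif2ak3), the kinase of the ER, stood at 18.1 CPM in WT and 14.8 CPM in ND6 (−0.29, −0.42 to −0.16), and GCN2 (Eif2ak4), which senses uncharged tRNA, at 7.63 and 9.75 CPM (0.35, 0.17 to 0.54). The relay from mitochondria to the kinase HRI consists of the protease OMA1 and its substrate DELE1. Oma1 stood at 19.3 and 20.2 CPM (0.06, −0.06 to 0.18) and Dele1 at 24.9 and 23.5 CPM (−0.09, −0.19 to 0.02). Among 11 genes of eIF2, its exchange factor, and its phosphatase, 1 lay past 0.5, Ppp1r15a, which encodes the inducible phosphatase subunit GADD34 and stood at 21.0 CPM in WT and 13.5 CPM in ND6 (−0.64, −0.77 to −0.51).

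The partner transcription factors had a median of −0.11, with 2 of 7 lower and 1 higher past 0.5, beside the 8.72% and 21.4% of all genes. Atf3, which is also an immediate early gene, stood at 60.1 CPM in WT and 16.0 CPM in ND6 (−1.91, −2.02 to −1.81), and Cebpb at 11.2 and 3.53 CPM (−1.67, −1.90 to −1.45). Nupr1, a stress-induced chromatin regulator, stood at 4.64 and 6.96 CPM (0.58, 0.36 to 0.81). In the ER unfolded protein response, 3 of 10 genes were lower past 0.5 and 0 higher, beside the same 8.72% and 21.4%, with a median of −0.43. The chaperone gene Hspa5 stood at 355 CPM in WT and 177 CPM in ND6 (−1.01, −1.04 to −0.97), Xbp1 at 65 and 37.2 CPM (−0.81, −0.88 to −0.73), and Herpud1 at 56.7 and 32.2 CPM (−0.81, −0.90 to −0.73), whereas Atf6, which encodes an ER stress sensor, stood at 50.4 and 50.6 CPM (0.01, −0.07 to 0.08).

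Serine, 1-carbon, and proline enzymes other than the members had a median of 0.22, with Aldh1l1 higher (1.41 and 2.13 CPM, 0.59, 0.18 to 1.02) and Aldh18a1, which starts proline synthesis, lower (9.63 and 5.75 CPM, −0.74, −0.94 to −0.55). Amino acid transport had a median of −0.01, with 1 of 8 past 0.5, Slc7a3, a transporter of cationic amino acids (1.16 and 2.07 CPM, 0.83, 0.39 to 1.30). Aminoacyl-tRNA synthetases, which charge tRNAs, had a median of −0.18, and 0 of 12 lay past 0.5. Of all genes, 8.72% were lower and 21.4% higher past 0.5, with a median of 0.07. Other targets had a median of −0.04, with Pck2, the mitochondrial PEP carboxykinase, higher (2.27 and 3.54 CPM, 0.64, 0.32 to 0.97) and Eif4ebp1, an inhibitor of cap-dependent translation, lower (1.54 and 1.00 CPM, −0.62, −1.12 to −0.13). Stc2, with 5 and 15 UMIs, was also past 0.5 (1.29, −0.16 to 3.19) and is named here after its value was seen. Fgf21, the other circulating marker of mitochondrial disease, was listed at 0 UMIs in both libraries, which allows up to 3 UMIs per library, and Chac1 gave 7 and 8 UMIs.

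**Figure D5:**
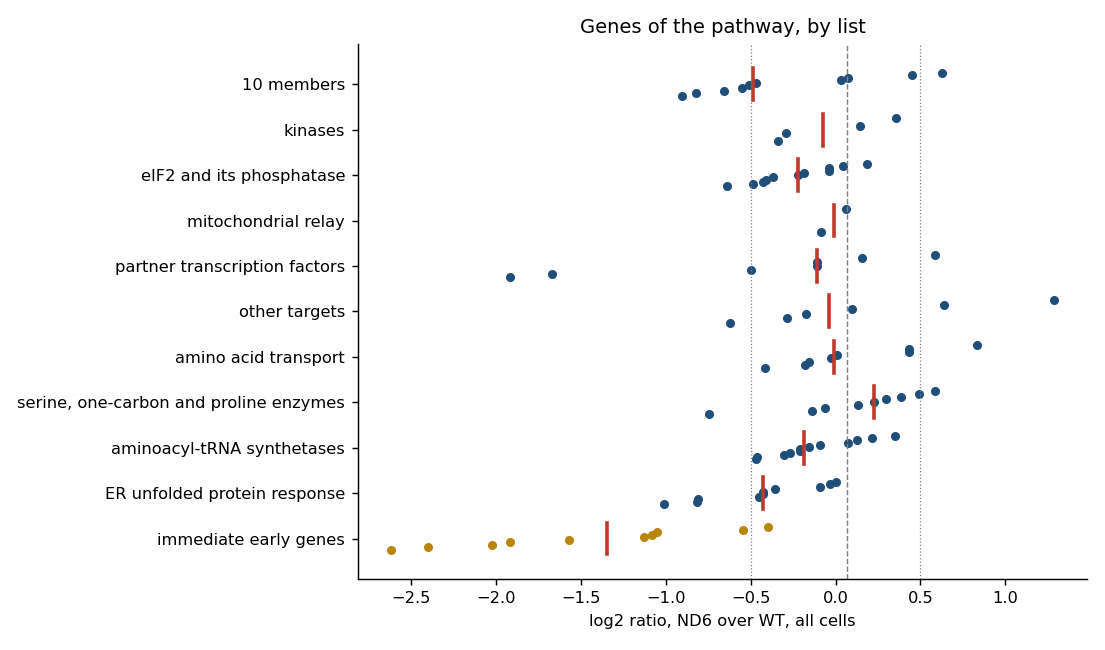
Log2 ratio of ND6 over WT over all cells for each gene of the 10 members, the 9 pathway lists, and the immediate early genes, as 1 point per gene with at least 20 UMIs. Red bars are list medians, the dashed line is the median of all genes (0.07), and dotted lines mark 0.5 in each direction. The ER unfolded protein response (−0.43) and the members (−0.49) lie lowest among the pathway lists, and the immediate early genes lie lower still (−1.35).

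Immediate early genes, which dissociation of tissue is known to induce within minutes, differed as well. All 10 genes of the list were lower in ND6, with a median of −1.35. Fos stood at 395 CPM in WT and 97.2 CPM in ND6 (−2.02, −2.06 to −1.98), Egr1 at 337 and 64.0 CPM (−2.40, −2.45 to −2.35), and Jun at 129 and 62.1 CPM (−1.05, −1.11 to −0.99). In rod-like cells the median of the list was −1.01. These genes are lower in ND6 beside Atf4, Ddit3, Atf3, and Ppp1r15a, and their part in the lower members was not tested.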

How the data were processed

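Droplet-based 3′ scRNA-Seq was made from retina of WT and ND6 mice, with 1 library of each genotype analysed here. Per the labels and the study's methods, the authors processed the reads with Cell Ranger 3.0.2 against mm10 and deposited raw UMI counts for each gene and barcode, unfiltered and not normalized. Barcodes with more than 400 UMIs, more than 200 genes, and at most 20% mtDNA-encoded UMIs were kept as cells, the limits of the study's methods. A comparison with the study's own cell count was not made, since that count covers libraries not analysed here. The confounders that the study regressed out, dissociation stress and cell cycle among them, were not regressed here. No doublet caller was run and doublets were kept.

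Cells were log-normalized, the 3000 most variable genes were scaled separately by library, and a graph of 20 neighbours on 30 principal components was clustered by Leiden at resolution 1 (scanpy 1.11.5, leidenalg 0.10.2). The 105 mtDNA-encoded and listed genes, members included, were left out of the clustering. A cluster was named from marker lists when it had at least 20 cells, at least 3 markers raised 2-fold, and more markers of its class than of any other, and at least as many as mtDNA-encoded genes, among its leading 10 genes of at least 500 CPM. Clusters still unnamed were compared with the named clusters other than photoreceptors and called rod-like when at least 3 rod markers were raised. The rule was settled after the clusters were seen. Of the macrophage- or microglia-like clusters, 1 was led by Igkc and Tyrobp, and the other by Il1a, Ccl4, and Ccl3. The members and lists were chosen with earlier results of these data known. Named are all members and, from each pathway list, up to 4 genes with at least 100 UMIs and a log2 ratio past 0.5 and up to 2 for their role. The study's fold limit on the log2 scale was taken over.

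Sums of UMIs were made for each library and class, and 0.5 UMIs were added to each sum before a ratio was taken. Exact Poisson, Clopper-Pearson, and conditional 95% intervals (scipy 1.17.1) were tested on simulated data and cover counting error only. A gene with fewer than 20 UMIs over both libraries was called too sparse. Gene positions are from GENCODE release M21, whose identifiers matched all 10 members. No read-level data were used. The genes whose levels most resembled Phgdh are not reported here.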

Additional observations from a re-analysis of the deposited data

Results flagged for a closer look

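Barcodes above the limit on mtDNA-encoded UMIs, which enter other comparisons only where no such limit was set, gave a signal for a pair of members that was higher in ND6 than in the WT control. They comprise 10647 WT barcodes with 12867516 UMIs and 3861 ND6 barcodes with 4675296 UMIs. Atf5 stood there at 10.9 CPM in WT (140 UMIs) and 38.7 CPM in ND6 (181 UMIs), a log2 ratio of 1.83 (1.5 to 2.16), and Psat1 at 7.23 CPM (93 UMIs) and 20.7 CPM (97 UMIs), a log2 ratio of 1.52 (1.10 to 1.95). Over the kept cells these ratios were 0.63 and 0.03. The markers of other cells moved with them. The 8 Müller markers made up 848 CPM in the WT and 4092 CPM in the ND6 barcodes above the limit, the 9 RGC markers 449 and 1582 CPM, and the 10 rod markers 59724 and 34170 CPM, with 0 markers of these lists at 0 UMIs in either library. The part of this makeup in the ratios was not tested. Atf4 was lower in ND6 in these barcodes too, at 291 and 147 CPM (−0.99, −1.11 to −0.87).

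Trib3 differed in direction between rod-like clusters, with intervals that left out 0 on both sides. The log2 ratio was 2.25 in cluster 1 (3 and 24 UMIs), −0.75 in cluster 2, and −0.42 in cluster 6. The difference between the clusters was not tested.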

How the results depend on the processing

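Of 80 values of the members over all cells under other scalings, weights, and limits, 56 moved by less than their counting interval, 22 moved by more, and 2 were reversed. A value was called reversed only when its sign changed and its main log2 ratio was past 0.5. For levels over rod-like cells this limit was 2-fold. Other changes of sign were counted by the size of the move alone. Atf4 lay between −0.95 and −0.83 under all 8 of these settings. The Phgdh ratio was reversed to 0.84 with each cell weighted alike and to 0.72 in cells thinned to 400 UMIs. The median of the members was −0.20 with each cell weighted alike and −0.29 without the 5% of cells with the most UMIs. With each cell weighted alike, 1 member was lower and 2 were higher past 0.5, whereas 2 were higher with a limit of 10% on mtDNA-encoded UMIs, 2 were lower with no such limit, and 2 were lower without the cells of most UMIs. The median of all genes was 0.22 with each cell weighted alike, 0.17 with no limit on mtDNA, and 0.15 in cells thinned to 400 UMIs. Ratios are therefore shifted upward there. The share of all genes past 0.5 was not counted under these settings, and the cause of these changes was not tested.

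For the pathway lists, weighting each cell alike gave medians of −0.17 for eIF2 and its phosphatase, 0.12 for partner transcription factors, 0.37 for other targets, 0.67 for amino acid transport, and −0.14 for the ER unfolded protein response. Past 0.5 it gave 0 lower genes of eIF2 and its phosphatase, 0 higher partner factors, 0 lower other targets, 4 higher genes of amino acid transport, and 4 higher serine, 1-carbon and proline enzymes. The median of all genes was 0.22 under this weighting and 0.17 with no limit on mtDNA. The share of all genes past 0.5 was not counted under this or the following settings. These counts are therefore not read as results about the lists. With no limit on mtDNA the medians were −0.16 for eIF2 and its phosphatase, 0.11 for the mitochondrial relay, 0.029 for partner factors, −0.084 for tRNA synthetases, and −0.32 for the ER list, with 0 lower genes of eIF2, 1 higher other target, 3 higher genes of amino acid transport, and 3 higher serine and 1-carbon enzymes. A limit of 10% gave 3 lower genes of eIF2, 0 higher partner factors, 1 higher other target, 1 lower gene of amino acid transport, 0 higher serine and 1-carbon enzymes, and 2 lower tRNA synthetases. Without the 5% of cells with the most UMIs the medians were −0.28 for eIF2 and its phosphatase, 0.17 for other targets, and 0.30 for amino acid transport, with 0 other targets past 0.5 in either direction and 2 higher serine and 1-carbon enzymes. Median-of-ratios scaling gave 2 lower genes of eIF2 and 2 lower tRNA synthetases. Other targets held 1 higher gene in cells of at least 1000 UMIs and at a gene minimum of 100 UMIs, and a minimum of 1 UMI gave 2 lower serine and 1-carbon enzymes.

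Within classes, 422 of 448 values under other settings moved by less than their counting interval. Phgdh in Bc1- and Glul-led cells was reversed to −0.066 with each cell weighted alike. Over rod-like cells, 3 of 952 values were reversed, Gdf15 in WT Müller-like cells (−0.076) and Psat1 in ND6 macrophage- or microglia-like cells (−0.53) with each cell weighted alike, and Phgdh in ND6 red blood cell-like cells (−0.64) at Leiden resolution 0.5. Of the divisions added after the data were seen, rod-like cluster 0 reversed Trib3 (0.58), Shmt2 (0.020), and Mthfd2 (0.25), cluster 1 reversed Trib3 (2.25), and cluster 4 reversed Shmt2 (0.17). Rod-like cells of more than 400 and up to 1000 UMIs reversed Mthfd2 (0.66), those of more than 1000 and up to 2000 UMIs reversed Trib3 (0.58), RPE-like clusters 7 and 20 reversed Phgdh (0.55 and 0.25), bipolar-like cluster 23 reversed Atf4 (0.75), and barcodes above the limit on mtDNA reversed Trib3 (0.25) and Phgdh (0.56). Atf5 in rod-like cells (0.43 taken whole) fell below 0 in cluster 3 and in the ranges of up to 2000 UMIs. It is not among the reversed values because its main ratio was not past 0.5. No paired analysis was possible because each genotype has 1 library and no test was made. Depth limits Gdf15 most, with 186 UMIs in both libraries.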
